A study of Rattus norvegicus with 16 samples.

Results

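The integrated stress response and the unfolded protein response were followed through 10 genes of kidney cortex in rats injured with iron: Atf3, Atf4, Ddit3, Asns, Chac1, Trib3, Hspa5, Hsp90b1, Xbp1 and Herpud1. They were found by their exact gene names on an Agilent rat array that holds 34765 gene names. These 10 genes have 11 probes, 2 of them for Asns, and all 10 were among the 16031 genes tested.

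The study used 16 single-colour arrays of total RNA from kidney cortex of male Jcl:SD rats, a Sprague-Dawley stock, either wild type or heterozygous for BRCA1 (BRCA1+/-), a gene of DNA repair. Rats were injected in the abdomen with Fe-NTA (ferric nitrilotriacetate, an iron chelate that injures the proximal tubule), beginning at 4 weeks of age. The first week held 2 injections of 5 mg iron/kg and 3 of 7 mg iron/kg, and weeks 2 and 3 held 5 injections a week of 10 mg iron/kg. The kidneys were collected 48 h after the final injection. The groups were BRCA1+/- control (2 arrays), BRCA1+/- after 1 week of Fe-NTA (3), BRCA1+/- after 3 weeks (3), wild-type control (2), wild type after 1 week (3) and wild type after 3 weeks (3). The labels do not say how the BRCA1 allele was made, whether it is the same in every tissue, or whether each array is a separate rat. The p-values therefore measure only the spread between these samples, which may be technical. No age, vehicle or time of sampling is given for the controls, so age and treatment cannot be told apart, and the 3-week rats were older and had received more iron than the 1-week rats.

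Cells sense amino acid shortage, heme shortage, viral RNA and misfolded protein in the endoplasmic reticulum (ER) through 4 kinases that phosphorylate the translation factor eIF2. This slows protein synthesis in general but raises translation of the transcription factor ATF4, which then switches on genes for amino acid supply and, under lasting stress, for cell death. In parallel the ER sensors IRE1 and ATF6 switch on chaperones and degradation factors that clear misfolded protein from the ER, the unfolded protein response. In the kidney the proximal tubule, with its heavy load of transport proteins, is the segment best known for these responses after injury. ATF4 is controlled largely in translation, so its mRNA level says little about its protein.

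The promoters of these genes are known for short elements through which the responses act, and 4 are shown so that the letters can be set beside the values. RefSeq promoters (build GRCr8) were found for 9 of the 10 genes, all but Atf3, and the 250 bases before each start were searched on both strands. The ATF4 element TGATGNAA stood in 3.40% of all 33469 promoters and in those of Chac1, Trib3 and Herpud1. The ER stress response element, CCAATNNNNNNNNNCCACG, stood in 0.0657% of all promoters and in those of Hspa5, Hsp90b1 and Xbp1. The XBP1/ATF6 core TGACGTGG stood in 0.520% of all promoters and in none of the 9. Those of Atf4, Ddit3 and Asns held none of these elements, and that of Herpud1, grouped below with the ER genes, held only the ATF4 element. No motif letters overlap between these matches, and a match is a description of the letters only. The lines below give Chac1 (chr3:126795881-126796130, plus strand), Trib3 (chr3:161275534-161275783, minus strand), Hspa5 (chr3:38452766-38453015, plus strand) and Hsp90b1 (chr7:23012294-23012543, minus strand), each 5′ to 3′ along its gene, with the matched element in capitals. In Chac1 and Trib3 the ATF4 element lies on the other strand and so reads as its reverse complement. Hsp90b1 holds 2 ER stress response elements, the second on the other strand.
Chac1: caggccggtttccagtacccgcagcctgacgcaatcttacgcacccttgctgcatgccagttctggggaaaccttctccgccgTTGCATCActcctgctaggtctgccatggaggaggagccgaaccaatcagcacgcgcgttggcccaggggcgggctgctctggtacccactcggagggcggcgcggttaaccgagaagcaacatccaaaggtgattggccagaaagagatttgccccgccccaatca
Trib3: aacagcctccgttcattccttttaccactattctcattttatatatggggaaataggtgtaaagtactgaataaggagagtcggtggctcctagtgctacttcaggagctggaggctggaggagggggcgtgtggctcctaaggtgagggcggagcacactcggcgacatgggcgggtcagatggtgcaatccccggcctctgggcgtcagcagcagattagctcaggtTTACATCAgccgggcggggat
Hspa5: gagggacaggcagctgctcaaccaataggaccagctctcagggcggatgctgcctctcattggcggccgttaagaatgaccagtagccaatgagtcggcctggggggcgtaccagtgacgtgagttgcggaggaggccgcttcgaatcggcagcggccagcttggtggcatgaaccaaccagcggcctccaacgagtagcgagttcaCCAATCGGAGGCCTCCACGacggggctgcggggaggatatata
Hsp90b1: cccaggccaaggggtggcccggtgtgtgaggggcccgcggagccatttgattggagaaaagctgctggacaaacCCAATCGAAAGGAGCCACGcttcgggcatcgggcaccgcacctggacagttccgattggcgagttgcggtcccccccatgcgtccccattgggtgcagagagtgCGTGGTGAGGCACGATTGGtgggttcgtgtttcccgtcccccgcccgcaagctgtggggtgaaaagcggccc

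The arrays were equal in design, each with 62976 spots and no saturated spot, but differed in brightness. The share of probes well above background ran from 37.4% to 51.6% in BRCA1+/- and from 33.1% to 60.5% in wild type over the treated arrays, against 40.9% to 48.3% in BRCA1+/- controls and 32.8% to 36.3% in wild-type controls. Values are scaled log2 signals, on which 0 is the 75th percentile of an array, and levels are compared between arrays and not between genes. Replicate arrays correlated at r = 0.963 to 0.981 over the 16031 genes in every group but wild type after 1 week. There replicate 3 correlated with the other arrays at 0.905 and 0.908, against 0.970 between those 2. The calls of the stress-response genes against control in that group are given with and without it. For the pathway lists below only the calls are given without it. Log2 changes and bounds of the other named genes in that group, and the marker counts, include it. Proximal tubule markers were detected in every group, as the tissue label says. Their mean was lowest in wild type after 1 week (1.67 to 2.61, against 5.80 to 6.06 in wild-type controls) and stood at 3.11 to 4.53 in BRCA1+/- after 1 week (against 5.33 to 5.92 in BRCA1+/- controls). Injured-tubule markers (Havcr1, Spp1, Lcn2, Vcam1) averaged 3.72 to 5.29 over all treated arrays, against -0.96 to -0.70 over all controls. Fibroblast markers averaged 2.43 or higher on treated BRCA1+/- arrays, against 1.34 to 1.52 in BRCA1+/- controls, and 2.29 or higher in treated wild type, against 0.97 to 1.05 in wild-type controls. Of the 4, 2 and 4 rose after 1 and 3 weeks in BRCA1+/- and 3 and 4 in wild type. Of 4 tested macrophage markers 2 and 3 rose in BRCA1+/- and 3 and 2 in wild type, and of 2 tested B and plasma cell markers 0 and 2 rose in BRCA1+/- and 1 and 1 in wild type. Erythroid markers fell, 4 and 2 of 4 in BRCA1+/- and 3 and 3 in wild type. These counts are of markers with an adjusted p under 0.05 in limma. Over all genes 7.45% and 15.9% passed that threshold in BRCA1+/- after 1 and 3 weeks, and 27.1% and 14.3% in wild type, in either direction. The part of these markers in the results below was not tested. The plasma cell markers Mzb1 and Tnfrsf17 were detected on no array while Jchain was detected on all 16, and the 4 pancreatic acinar markers were detected on none. Of 3 adrenal cortex markers Cyp11b1 was detected on no array, Star on 1 and Cyp11a1 on all 16. After 1 week Cyp11a1 read 0.36 to 3.57 in BRCA1+/-, against 1.09 to 1.65 in controls. In wild type it read 0.42 to 2.86, against 0.35 to 0.60. Its part in the results was not tested. In whole tissue, fewer cells of a type and less RNA per cell cannot be told apart.

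In BRCA1+/- kidneys after 1 week 4 of the 10 genes rose (Atf3, Asns, Hspa5, Hsp90b1) and none fell, where 7.45% of all genes tested passed the same threshold and 4.25% passed upward. After 3 weeks 2 rose (Atf3, Asns), where 15.9% of all genes passed, 9.35% upward. In wild type after 1 week Atf3, Asns, Hspa5 and Hsp90b1 rose and Herpud1 fell, 4 up and 1 down, where 27.1% of all genes passed, 12.8% upward and 14.3% downward. After 3 weeks 2 rose in wild type (Atf3, Asns), where 14.3% passed, 8.76% upward. Passing means an adjusted p under 0.05 in limma over all genes. The median log2 change of the 10 genes was 0.72 and 0.23 after 1 and 3 weeks in BRCA1+/- and 0.75 and 0.36 in wild type, beside -0.03, 0.01, -0.02 and -0.02 over all genes. Both times in a genotype are set against the same 2 control arrays.

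**Figure D1:**
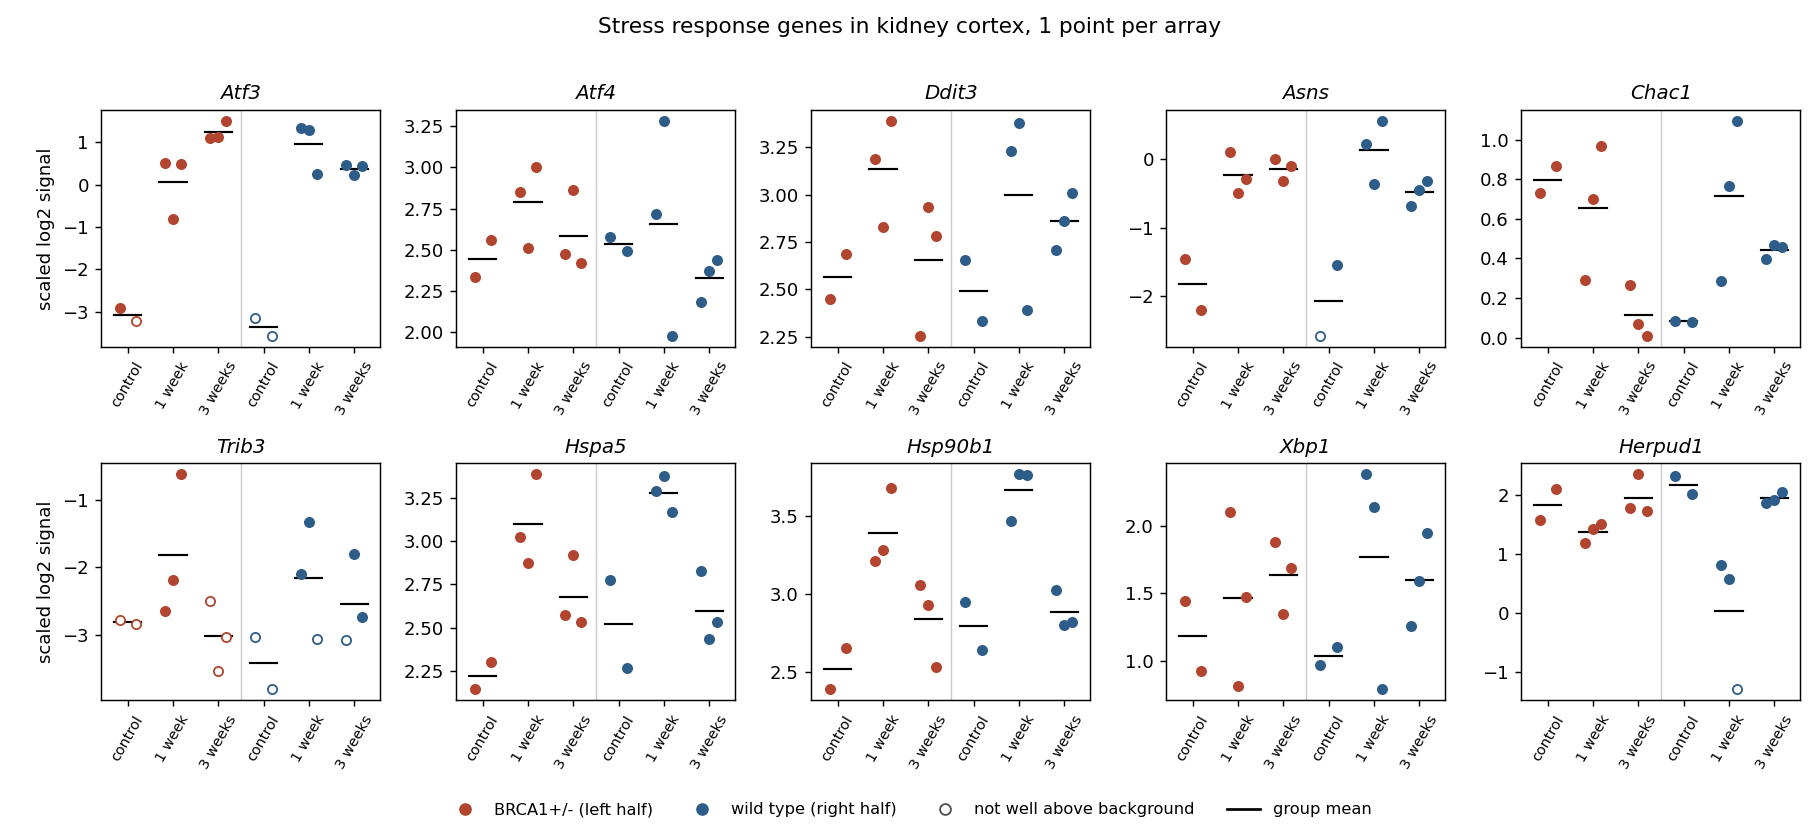
Scaled log2 signal (y axis, 0 is the array's 75th percentile) of the 10 genes on each array, in panels by gene, with BRCA1+/- on the left and wild type on the right of each panel. Points are arrays, open points are not well above background, and bars are group means; Atf3 sits between -3.58 and -2.92 on the 4 control arrays and at -0.82 or higher on every treated array.

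Atf3, an immediate stress factor induced by ATF4 and by other injury signals, rose in all 4 comparisons with control. BRCA1+/- arrays gave -2.92 and -3.22 in controls, 0.52, -0.82 and 0.48 after 1 week, and 1.09, 1.13 and 1.51 after 3 weeks. Wild-type arrays gave -3.16 and -3.58 in controls, 1.33, 1.30 and 0.26 after 1 week, and 0.46, 0.23 and 0.44 after 3 weeks. No treated array overlapped a control, and every treated array was well above background, whereas 1 of the 2 BRCA1+/- controls and neither wild-type control was. The log2 change was 3.13 ± 0.40 after 1 week (SE; adjusted p = 0.00039) and 4.32 ± 0.40 after 3 weeks (adjusted p = 1.2e-05) in BRCA1+/-, and 4.33 ± 0.40 (adjusted p = 6.1e-06) and 3.75 ± 0.40 (adjusted p = 7.3e-05) in wild type. Because the wild-type controls hold only a bound, Atf3 was at least 7.58-fold higher after 1 week and at least 5.05-fold higher after 3 weeks. Such a bound sets the bright group's mean against the dim group's mean of, on each array, the higher of the gene's own signal and the lowest signal well above background. The size depends on how background is treated: with normexp correction the log2 change was 0.74 and 1.41 after 1 and 3 weeks in BRCA1+/- (adjusted p = 0.10 and 0.0037) and 0.92 and 0.62 in wild type (adjusted p = 0.021 and 0.12). The arrays lie on 2 slides that each hold all 6 groups. Within them the log2 change was 3.05 and 3.45 in BRCA1+/- after 1 week and 4.46 and 4.38 in wild type after 1 week.

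Asns, the enzyme that makes asparagine and a classical ATF4 target, rose in all 4 comparisons. In BRCA1+/- its brighter probe read -1.46 and -2.20 in controls, 0.10, -0.50 and -0.29 after 1 week, and -0.00075, -0.31 and -0.097 after 3 weeks. The wild-type values were -2.59 and -1.55 in controls, 0.23, -0.36 and 0.57 after 1 week, and -0.68, -0.44 and -0.32 after 3 weeks. All treated arrays were above all controls. The log2 change was 1.60 ± 0.35 after 1 week (adjusted p = 0.013) and 1.69 ± 0.35 after 3 weeks (adjusted p = 0.0058) in BRCA1+/-, and 2.21 ± 0.35 (adjusted p = 0.00036) and 1.59 ± 0.35 (adjusted p = 0.0083) in wild type. The BRCA1+/- changes are 3.04-fold and 3.24-fold. Wild-type control replicate 1 was not well above background, and with values below the detection limit raised to it the wild-type log2 changes were 1.78 and 1.15 (adjusted p = 0.00083 and 0.027). The other Asns probe was well above background on 4 of 16 arrays and did not enter the test. Without BRCA1+/- control replicate 2 neither BRCA1+/- call held (1.23 and 1.32, adjusted p = 0.19 and 0.10), and without wild-type control replicate 1 the 3-week wild-type call was lost (1.07, adjusted p = 0.13). With normexp the values were 0.45 and 0.47 in BRCA1+/- and 0.43 and 0.17 in wild type, past the threshold in BRCA1+/- after 3 weeks and in wild type after 1 week.

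Atf4 itself, the factor at the centre of the response, did not pass in any comparison. In BRCA1+/- it read 2.33 and 2.56 in controls, 2.85, 2.51 and 3.00 after 1 week, and 2.48, 2.87 and 2.42 after 3 weeks. In wild type it read 2.58 and 2.49 in controls, 2.72, 3.28 and 1.98 after 1 week, and 2.18, 2.37 and 2.44 after 3 weeks. The 95% confidence interval of its log2 change was -0.34 to 1.03 and -0.55 to 0.83 after 1 and 3 weeks in BRCA1+/-, and -0.56 to 0.81 and -0.89 to 0.48 in wild type.

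Ddit3, which encodes the pro-apoptotic factor CHOP downstream of ATF4, and Trib3, a pseudokinase that CHOP and ATF4 induce, passed in no comparison, and in wild type after 1 week their call turned on a single array. Ddit3 in BRCA1+/- read 2.45 and 2.69 in controls, 3.19, 2.83 and 3.39 after 1 week, and 2.25, 2.94 and 2.78 after 3 weeks. Wild-type arrays gave 2.65 and 2.33 in controls, 3.23, 3.38 and 2.39 after 1 week, and 2.71, 2.86 and 3.01 after 3 weeks. After 1 week all 3 BRCA1+/- arrays and 2 of the 3 wild-type arrays were above their controls, and the third wild-type array, replicate 3, lay between them. The 1-week log2 change was 0.57 ± 0.32 in BRCA1+/- (adjusted p = 0.31) and 0.51 ± 0.32 in wild type (adjusted p = 0.26).

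Trib3 was dim, and it was kept for testing only because all 3 BRCA1+/- arrays after 1 week were well above background. They read -2.65, -2.19 and -0.61, against -2.79 and -2.84 in BRCA1+/- controls, neither of which was well above background. In wild type after 1 week it read -2.10, -1.32 and -3.07, the last not above background, against -3.03 and -3.81 in wild-type controls. After 3 weeks it read -2.49, -3.54 and -3.04 in BRCA1+/-, all below the background threshold, and -3.08, -1.80 and -2.74 in wild type. In BRCA1+/- after 1 week Trib3 did not pass (adjusted p = 0.35). No fold is given there, because the same 3 arrays let it into the test and 1 of them, at -0.61, stood far above the others. Neither wild-type control was well above background, and no fold is given for wild type either: after 1 week it did not pass (adjusted p = 0.13), and with values below the detection limit raised to it the log2 change was 0.23 (adjusted p = 0.80).

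Chac1, which breaks down glutathione and is a target of ATF4, ATF3 and CHOP, passed in no comparison. BRCA1+/- arrays gave 0.73 and 0.87 in controls, 0.29, 0.70 and 0.97 after 1 week, and 0.27, 0.070 and 0.0077 after 3 weeks. The wild-type values were 0.083 and 0.081 in controls, 0.29, 0.77 and 1.10 after 1 week, and 0.40, 0.47 and 0.46 after 3 weeks. All treated wild-type arrays were above their controls, while all 3 BRCA1+/- arrays after 3 weeks were below theirs. The log2 change was -0.68 ± 0.27 in BRCA1+/- after 3 weeks (adjusted p = 0.093) and 0.63 ± 0.27 in wild type after 1 week (adjusted p = 0.096).

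Hspa5 (the chaperone BiP, which holds the ER sensors inactive) and Hsp90b1 (GRP94, the HSP90 of the ER) rose together after 1 week. Hspa5 in BRCA1+/- read 2.14 and 2.30 in controls, 3.03, 2.88 and 3.39 after 1 week, and 2.58, 2.92 and 2.53 after 3 weeks. In wild type it read 2.78 and 2.27 in controls, 3.29, 3.38 and 3.17 after 1 week, and 2.83, 2.44 and 2.53 after 3 weeks. All 1-week arrays were above their controls in both genotypes, and the wild-type arrays after 3 weeks overlapped theirs. The 1-week log2 change was 0.88 ± 0.25 in BRCA1+/- (1.84-fold, adjusted p = 0.049) and 0.76 ± 0.25 in wild type (1.69-fold, adjusted p = 0.038), and after 3 weeks it was 0.46 ± 0.25 (adjusted p = 0.22) and 0.074 ± 0.25 (adjusted p = 0.87).

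Hsp90b1 in BRCA1+/- read 2.39 and 2.65 in controls, 3.21, 3.29 and 3.68 after 1 week, and 3.06, 2.93 and 2.54 after 3 weeks. Wild-type arrays gave 2.95 and 2.64 in controls, 3.47, 3.77 and 3.77 after 1 week, and 3.03, 2.80 and 2.82 after 3 weeks. The 1-week arrays were again all above their controls, and the 3-week arrays overlapped them in both genotypes. The 1-week log2 change was 0.87 ± 0.25 in both BRCA1+/- (adjusted p = 0.048) and wild type (adjusted p = 0.018). The BRCA1+/- calls of Hspa5 and Hsp90b1 sat at the threshold and held in 7 and 6 of 29 alternative settings, with values of 0.73 to 0.99 and 0.73 to 1.00. In wild type they held in 17 and 24 of 29, at 0.50 to 1.01 and 0.71 to 1.09.

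Xbp1, whose mRNA is spliced by IRE1 into the form that drives ER chaperones and secretory capacity, passed in no comparison. Its probe reads the sum of both forms if it lies outside the spliced stretch, which was not examined. In BRCA1+/- it read 1.45 and 0.92 in controls, 2.11, 0.81 and 1.47 after 1 week, and 1.88, 1.35 and 1.69 after 3 weeks. The wild-type values were 0.97 and 1.10 in controls, 2.38, 2.14 and 0.79 after 1 week, and 1.26, 1.59 and 1.95 after 3 weeks. The 1-week arrays spanned the controls in both genotypes, with a log2 change of 0.28 ± 0.44 in BRCA1+/- (adjusted p = 0.77) and 0.74 ± 0.44 in wild type (adjusted p = 0.25).

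Herpud1, an ER membrane protein of the degradation machinery, was the single gene of the 10 that fell against control in the fit over all arrays. In wild type it read 2.32 and 2.01 in controls, 0.81, 0.59 and -1.29 after 1 week, and 1.87, 1.90 and 2.05 after 3 weeks. The 1-week arrays were all below the controls, and replicate 3 was not well above background. BRCA1+/- arrays gave 1.57 and 2.10 in controls, 1.19, 1.42 and 1.5 after 1 week, and 1.78, 2.35 and 1.72 after 3 weeks. The 1-week arrays were again below both controls. The wild-type log2 change after 1 week was -2.13 ± 0.46 (adjusted p = 0.0034), and without replicate 3 it was -1.47 (adjusted p = 0.0011), and with normexp -0.87 (adjusted p = 0.018). In BRCA1+/- it was -0.46 ± 0.46 (adjusted p = 0.61). The difference between the genotypes in that change was 1.67 ± 0.66 (95% confidence interval 0.27 to 3.07), which did not pass in limma (adjusted p = 0.55). Within slides the wild-type value was -1.74 and -2.25. Proximal tubule markers moved in the same direction in the same arrays (above), and their part in this result was not tested.

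Leaving out wild-type 1-week replicate 3 raised the count in that comparison to 8 of 10 genes, 7 up and 1 down, where 33.6% of all genes passed. Ddit3 (log2 change 0.81, adjusted p = 0.031), Xbp1 (1.23, adjusted p = 0.022) and Trib3 then joined Atf3 (4.69), Asns (2.00), Hspa5 (0.81), Hsp90b1 (0.82) and Herpud1. The Trib3 call (adjusted p = 0.045) rests on control values below background, so its size is not given. That array was the lowest of its group for Atf3, Atf4, Ddit3, Trib3, Hspa5, Xbp1 and Herpud1 and the highest for Asns and Chac1. Its proximal tubule mean was 1.67, the lowest of the 16 arrays, against 2.61 and 2.34 on the other arrays of its group. Leaving it out also brought the fall of Chac1 in BRCA1+/- after 3 weeks past the threshold (-0.68, adjusted p = 0.034), with its log2 change the same.

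**Figure D2:**
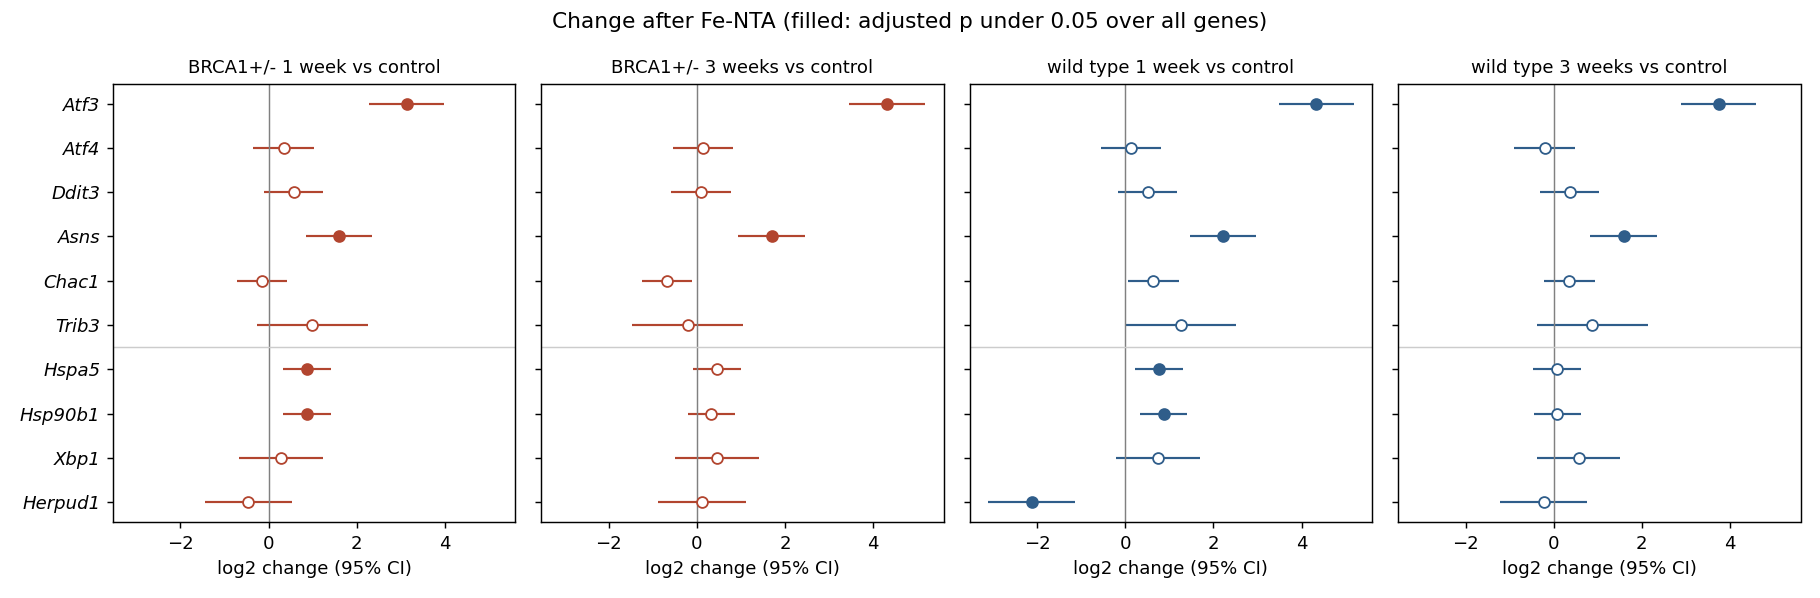
Log2 change after Fe-NTA (x axis, with 95% confidence interval) of the 10 genes (y axis) in the 4 comparisons with control, BRCA1+/- in the left panels and wild type in the right ones. Filled points have an adjusted p under 0.05 over all genes: Atf3 and Asns in all 4 panels, Hspa5 and Hsp90b1 after 1 week in both genotypes, and Herpud1 in wild type after 1 week.

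Between 3 weeks and 1 week, wild-type kidneys had lower Hsp90b1 (log2 change -0.78 ± 0.22, adjusted p = 0.044) and higher Herpud1 (1.90 ± 0.41, adjusted p = 0.012), where 8.33% of all genes passed, 5.56% upward and 2.78% downward. The Hsp90b1 call held in 11 of 29 alternatives, and in 4 of the 16 that leave out 1 array, whereas that of Herpud1 held in 25 of 29. Without wild-type 1-week replicate 3 Hsp90b1 was at -0.73 (adjusted p = 0.066) and Herpud1 at 1.24 (adjusted p = 0.011). Hspa5 was lower by a like amount without passing (-0.68 ± 0.23, adjusted p = 0.079). In BRCA1+/- none of the 10 passed in limma between 3 weeks and 1 week, where 0.306% of all genes did, and 4 had an unadjusted p under 0.05, as did 11.7% of all genes. The Hsp90b1 values there were 2.84 ± 0.27 after 3 weeks and 3.39 ± 0.25 after 1 week (SD, n = 3 each), a log2 change of -0.55 ± 0.22 (adjusted p = 0.38). Atf3 gave values of opposite sign in the genotypes, 1.18 ± 0.36 in BRCA1+/- (adjusted p = 0.20) and -0.59 ± 0.36 in wild type (adjusted p = 0.34), and neither passed.

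No gene of the 10 passed between BRCA1+/- and wild type in limma. Among controls 1 of the 10 had an unadjusted p under 0.05, after 1 week 2 and after 3 weeks 1, where 4.67%, 12.6% and 5.81% of all genes did, and 0%, 0.561% and 0% of all genes passed after adjustment. Chac1 was 0.80 ± 0.098 in BRCA1+/- controls and 0.082 ± 0.0018 in wild-type controls (SD, n = 2 each), without overlap (log2 difference 0.72 ± 0.29, adjusted p = 1). Atf3 after 3 weeks was 1.24 ± 0.23 in BRCA1+/- and 0.38 ± 0.13 in wild type (SD, n = 3 each), also without overlap (0.87 ± 0.36, adjusted p = 0.81). After 1 week Herpud1 was 1.37 ± 0.16 in BRCA1+/- and 0.037 ± 1.15 in wild type (1.33 ± 0.41, adjusted p = 0.17). The interaction of genotype with treatment passed for none of the 10 at either time, and 0% of all genes passed. At each time 1 of the 10 had an unadjusted p under 0.05, as did 7.64% and 4.75% of all genes after 1 and 3 weeks. For Hsp90b1 after 1 week that interaction was 0.0015 with a 95% confidence interval of -0.76 to 0.76.

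The ATF4 arm and the ER arm were set side by side as the mean gene-centred log2 signal of Atf3, Ddit3, Asns, Chac1 and Trib3, and of Hspa5, Hsp90b1, Herpud1 and Xbp1. Trib3 entered as read, although it was kept for testing only through BRCA1+/- after 1 week. It was well above background on 7 of 16 arrays and on no control, and the means without it were not computed. The ATF4-arm mean in BRCA1+/- was -0.83 ± 0.10 in controls, 0.40 ± 0.40 after 1 week and 0.21 ± 0.099 after 3 weeks. In wild type it was -1.21 ± 0.069, 0.57 ± 0.26 and 0.17 ± 0.16 in the same order (SD, n = 2, 3 and 3). The ER mean in BRCA1+/- was -0.27 ± 0.076 in controls, 0.13 ± 0.21 after 1 week and 0.071 ± 0.14 after 3 weeks, and in wild type -0.076 ± 0.18, -0.017 ± 0.50 and 0.049 ± 0.076. In wild type after 1 week that mean joins the higher values of Hspa5, Hsp90b1 and Xbp1 with the fall of Herpud1: its change from control was 0.059 with all 4 genes and 0.79 without Herpud1.

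The ATF4-arm mean minus the ER mean was higher than in controls by 0.84 and 0.70 after 1 and 3 weeks in BRCA1+/-, and by 1.73 and 1.26 in wild type. Much of it rests on Atf3, whose control values were at or near background: without Atf3 these figures were 0.36, -0.11, 1.09 and 0.67. Without Herpud1 they were 0.55, 0.63, 1.00 and 1.15. With normexp background correction they were -0.019, -0.023, 0.035 and -0.16, so neither the size nor, in 3 of 4 cases, the direction of the gap holds across settings. The members were chosen with results known, so no p is attached.

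**Figure D3:**
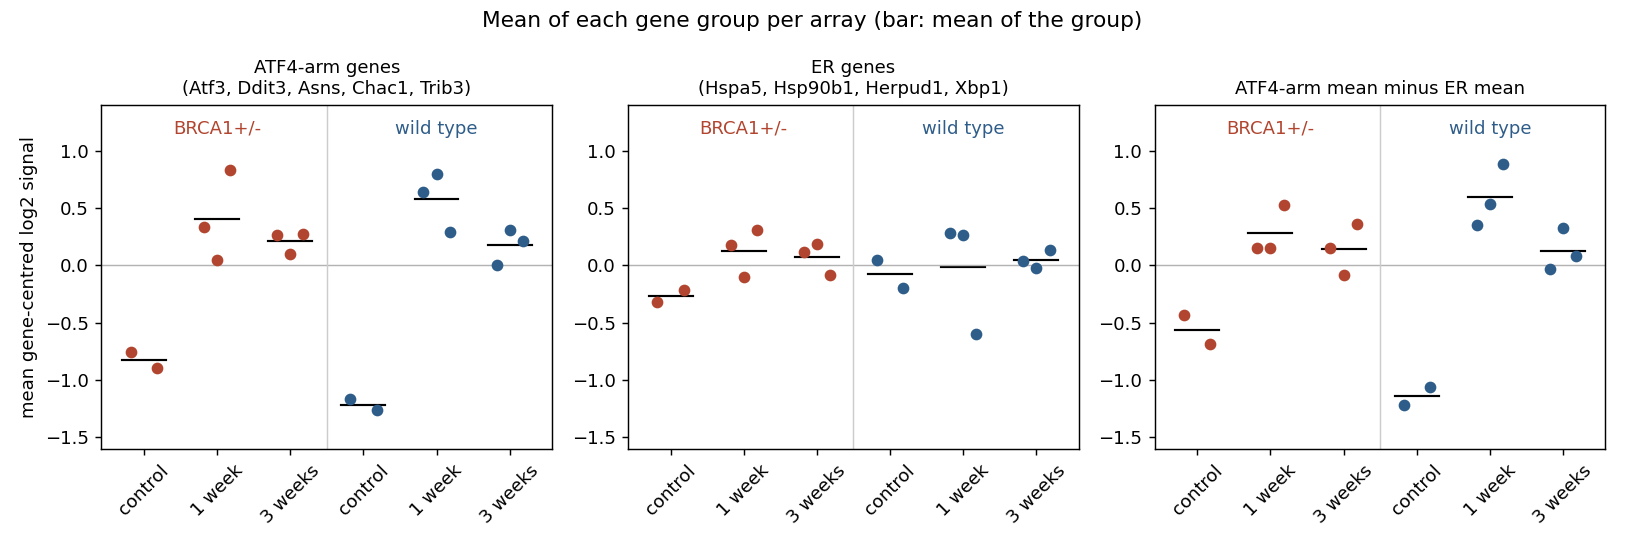
Mean gene-centred log2 signal (y axis) of the ATF4-arm genes, of the ER genes, and their difference on each array, with BRCA1+/- left and wild type right in each panel and bars at group means. All 4 control arrays are below all 12 treated arrays in the ATF4-arm panel, while the ER panel shows 1 wild-type 1-week array, replicate 3, at -0.60. The ATF4-arm panel includes Trib3, which was well above background on no control array.

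The kinases, phosphatases and ER sensors upstream were followed in a list of 12 genes, 10 of them tested. In BRCA1+/- none passed in limma after 1 or 3 weeks (2 and 1 with an unadjusted p under 0.05, beside 22.9% and 33.5% of all genes). In wild type 4 rose and 1 fell after 1 week, where 27.1% of all genes passed, and 2 rose after 3 weeks, where 14.3% passed. The list's median log2 change was 0.22 and 0.42 in BRCA1+/- and 0.23 and 0.52 in wild type after 1 and 3 weeks. Eif2ak3 (PERK, the ER-resident eIF2 kinase) was at least 1.41-fold and at least 1.99-fold higher in wild type after 1 and 3 weeks than in controls (adjusted p = 0.050 and 0.016). Atf6b, a relative of the sensor ATF6, was at least 2.81-fold and at least 1.99-fold higher at the same times in wild type (adjusted p = 0.0042 and 0.034). Neither was well above background in a wild-type control, and those controls had 32.8% and 36.3% of probes well above background. Eif2ak3 was also not well above background on wild-type 1-week replicate 3. The adjusted p-values come from the signals as read and not from the bounds. With values below the detection limit raised to it, the Eif2ak3 calls at each time and the 3-week Atf6b call were lost. The 1-week Atf6b call held there. All 4 of these calls were lost with normexp and without wild-type control replicate 1, and that of Eif2ak3 after 1 week held in 8 of 29 alternatives. Atf6 itself fell in wild type after 1 week, reading 4.27, 4.22 and 3.46, against 4.98 and 4.96 in controls (log2 change -0.98 ± 0.27, adjusted p = 0.014).

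The other ATF4-dependent genes, 25 listed and 19 tested, had calls in both directions. After 1 week 4 rose and 3 fell in BRCA1+/- and 4 rose and 4 fell in wild type, where 7.45% and 27.1% of all genes passed. After 3 weeks 3 rose and 3 fell in BRCA1+/- and 3 rose and 1 fell in wild type, where 15.9% and 14.3% of all genes passed. The medians were -0.07 and -0.07 in BRCA1+/- and 0.05 and 0.07 in wild type. Eif4ebp1, a brake on cap-dependent translation, rose in all 4 comparisons. It read 3.64, 2.66 and 3.04 in BRCA1+/- after 1 week and 3.16, 2.94 and 3.47 after 3 weeks, against 1.39 and 1.36 in controls, and 4.16, 3.95 and 2.61 in wild type after 1 week and 3.21, 2.64 and 2.82 after 3 weeks, against 1.16 and 1.28. These groups did not overlap their controls, and the wild-type 1-week log2 change was 2.35 ± 0.40 (adjusted p = 6e-04).

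Gdf15, a secreted stress hormone, rose in BRCA1+/- after 1 and 3 weeks (log2 change 1.84 ± 0.48 and 1.87 ± 0.48, adjusted p = 0.032 and 0.019) and in wild type after 3 weeks (1.79 ± 0.48, adjusted p = 0.024). These calls held in 19, 22 and 20 of 29 alternatives, and both BRCA1+/- calls were lost when either BRCA1+/- control was left out. Nupr1, a small stress-induced chromatin protein, rose in wild type after 1 week (1.74 ± 0.49, adjusted p = 0.016).

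Psat1, an enzyme of serine synthesis, fell in all 4 comparisons. It is known as an ATF4 target. It read 4.39, 3.75 and 3.67 in BRCA1+/- after 1 week and 2.78, 3.61 and 4.30 after 3 weeks, against 5.76 and 5.49 in controls. Wild-type arrays gave 4.01, 4.28 and 2.87 after 1 week and 4.09, 3.87 and 3.65 after 3 weeks, against 5.79 and 5.70. The log2 change was -1.69 ± 0.44 and -2.06 ± 0.44 in BRCA1+/- (adjusted p = 0.030 and 0.0064) and -2.02 ± 0.44 and -1.87 ± 0.44 in wild type (adjusted p = 0.0032 and 0.011). Shmt2, which makes one-carbon units in mitochondria, fell in BRCA1+/- after 3 weeks (-1.13 ± 0.35, adjusted p = 0.041). Of the growth brakes that restrain mTORC1, Sesn2 fell in BRCA1+/- after 1 week (-1.08 ± 0.29, adjusted p = 0.036) and Ddit4 fell in wild type after 1 week (-1.39 ± 0.41, adjusted p = 0.019). The Ddit4 call held in 20 of 29 alternatives and was lost with the mean of the gene's probes. Those of Shmt2 and Sesn2 held in 16 and 18 of 29 and were lost when either BRCA1+/- control was left out. Of the 8 proximal tubule markers 3 and 3 fell in BRCA1+/- after 1 and 3 weeks, and 7 and 2 in wild type, where Cubn, named after its value was seen, rose after 3 weeks. Over all genes 7.45% and 15.9% passed in BRCA1+/- and 27.1% and 14.3% in wild type, in either direction. The part of these markers in these falls was not tested.

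**Figure D4:**
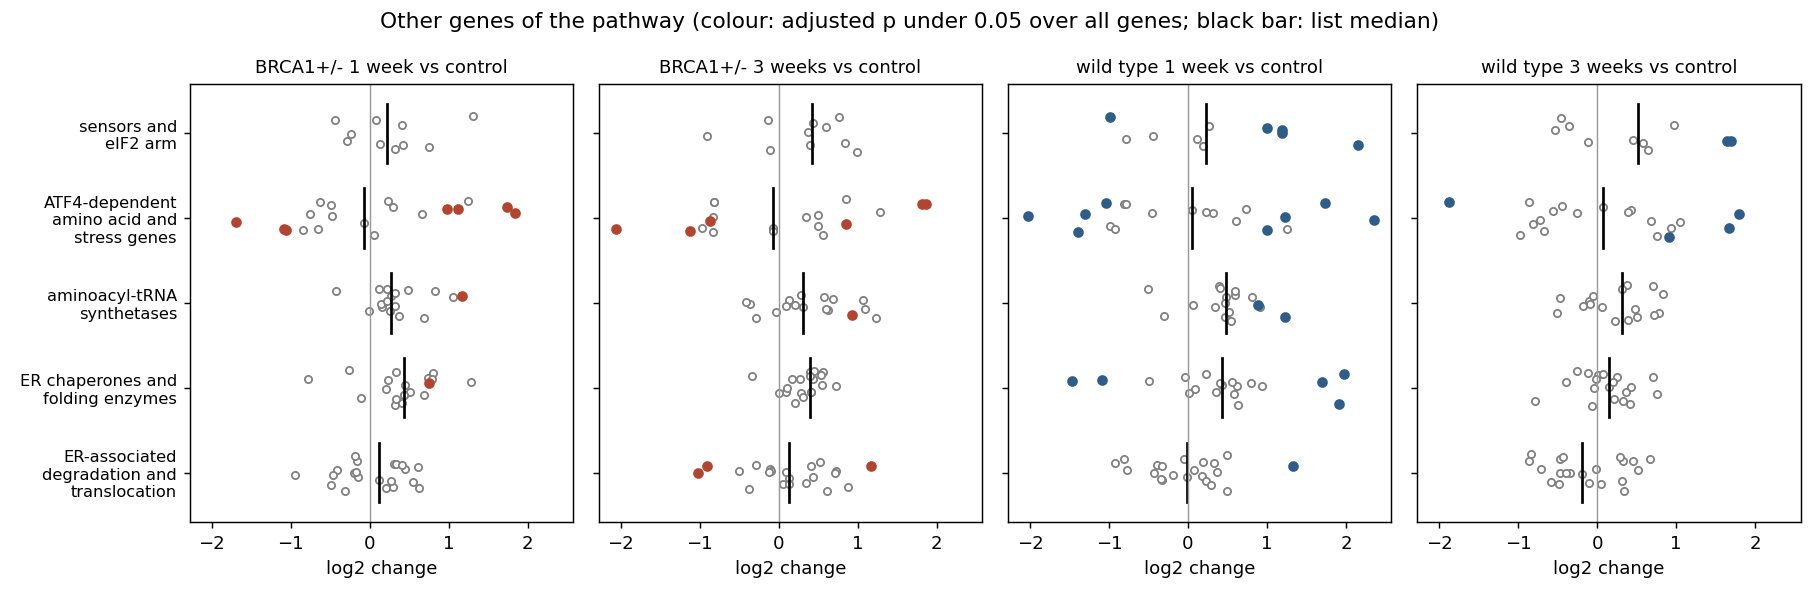
Log2 change (x axis) of every tested gene in 5 lists of the pathway (y axis, points jittered) in the 4 comparisons with control, BRCA1+/- in the left panels and wild type in the right ones. Coloured points have an adjusted p under 0.05 over all genes and black bars are list medians; the ATF4-dependent list has coloured points on both sides of 0 in every panel.

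Aminoacyl-tRNA synthetases, which charge tRNAs and include many ATF4 targets, had few calls. Of 18 listed and 17 tested genes 1 rose after each time in BRCA1+/-, and in wild type 2 rose after 1 week, beside 7.45%, 15.9% and 27.1% of all genes. None passed in limma in wild type after 3 weeks, where 14.3% of all genes did, and 1 had an unadjusted p under 0.05, beside 29.8% of all genes. The medians were 0.28 and 0.30 in BRCA1+/- and 0.48 and 0.32 in wild type. Rars1 (arginine) rose in BRCA1+/- by 1.17 ± 0.26 and 0.93 ± 0.26 on the log2 scale after 1 and 3 weeks (adjusted p = 0.014 and 0.027). Gars1 (glycine) and Kars1 (lysine) rose in wild type after 1 week by 1.23 ± 0.38 and 0.88 ± 0.31 (adjusted p = 0.026 and 0.048), and the Kars1 call held in 7 of 29 alternatives.

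ER chaperones and folding enzymes beyond Hspa5 and Hsp90b1, 20 listed and 19 tested, had calls in both directions in wild type. In BRCA1+/- 1 rose after 1 week, where 7.45% of all genes passed. None passed in limma after 3 weeks, where 15.9% of all genes did, and 1 had an unadjusted p under 0.05, beside 33.5% of all genes. In wild type 3 rose and 2 fell after 1 week, where 27.1% of all genes passed. None passed in limma after 3 weeks, where 14.3% of all genes did, and 3 had an unadjusted p under 0.05, beside 29.8% of all genes. The medians were 0.44 and 0.39 in BRCA1+/- and 0.43 and 0.15 in wild type. Creld2, an ER disulfide isomerase-like protein, was at least 2.48-fold higher in wild type after 1 week (adjusted p = 0.0076), reading -0.94, -0.55 and 0.23, against -3.06 and -1.74 in controls that were not well above background. That adjusted p comes from the signals as read and not from the bound. The Creld2 call held in 25 of 29 alternatives and was lost with normexp and without wild-type control replicate 1. Txndc5, a protein disulfide isomerase, rose by 1.91 ± 0.33 (adjusted p = 0.00065), reading 1.24, 0.31 and 1.64, against -1.16 and -0.53 in controls. In the same kidneys Dnajb9, a BiP co-chaperone that restrains IRE1, fell (-1.46 ± 0.28, adjusted p = 0.0014), as did Sil1, the nucleotide exchange factor of BiP (-1.09 ± 0.32, adjusted p = 0.019). Dnajb9 read -1.94, -2.35 and -1.67 there, against -0.67 and -0.37 in controls. Replicates 2 and 3 were not well above background, so the size of its fall rests on dim readings. Its call held in 25 of 29 alternatives and that of Sil1 in 22, and both were lost with normexp. In BRCA1+/- the gene that rose was Ero1a, an ER oxidase (0.76 ± 0.22, adjusted p = 0.050), a call that held in 6 of 29 alternatives.

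In the ER-associated degradation and translocation list, with all 21 genes tested, none passed in limma in BRCA1+/- after 1 week (1 with an unadjusted p under 0.05, beside 22.9% of all genes), and 1 rose and 2 fell after 3 weeks. In wild type 1 rose after 1 week, and none passed in limma after 3 weeks (4 with an unadjusted p under 0.05, beside 29.8% of all genes). Over all genes 7.45% and 15.9% passed in BRCA1+/- and 27.1% and 14.3% in wild type. The medians were 0.12 and 0.12 in BRCA1+/- and -0.0071 and -0.20 in wild type. Edem3, which trims mannose from misfolded glycoproteins, rose in BRCA1+/- after 3 weeks (1.17 ± 0.36, adjusted p = 0.039), while Selenos and Derl3, parts of the exit channel complex, fell (-1.02 ± 0.29 and -0.91 ± 0.24, adjusted p = 0.027 and 0.020). The Derl3 call held in 22 of 29 alternatives and was lost with the mean of the gene's probes. Those of Edem3 and Selenos held in 18 and 21 of 29. The calls of Derl3, Edem3 and Selenos were lost when either BRCA1+/- control was left out. Ssr2, a subunit of the translocon, rose in wild type after 1 week (1.33 ± 0.35, adjusted p = 0.010).

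**Figure D5:**
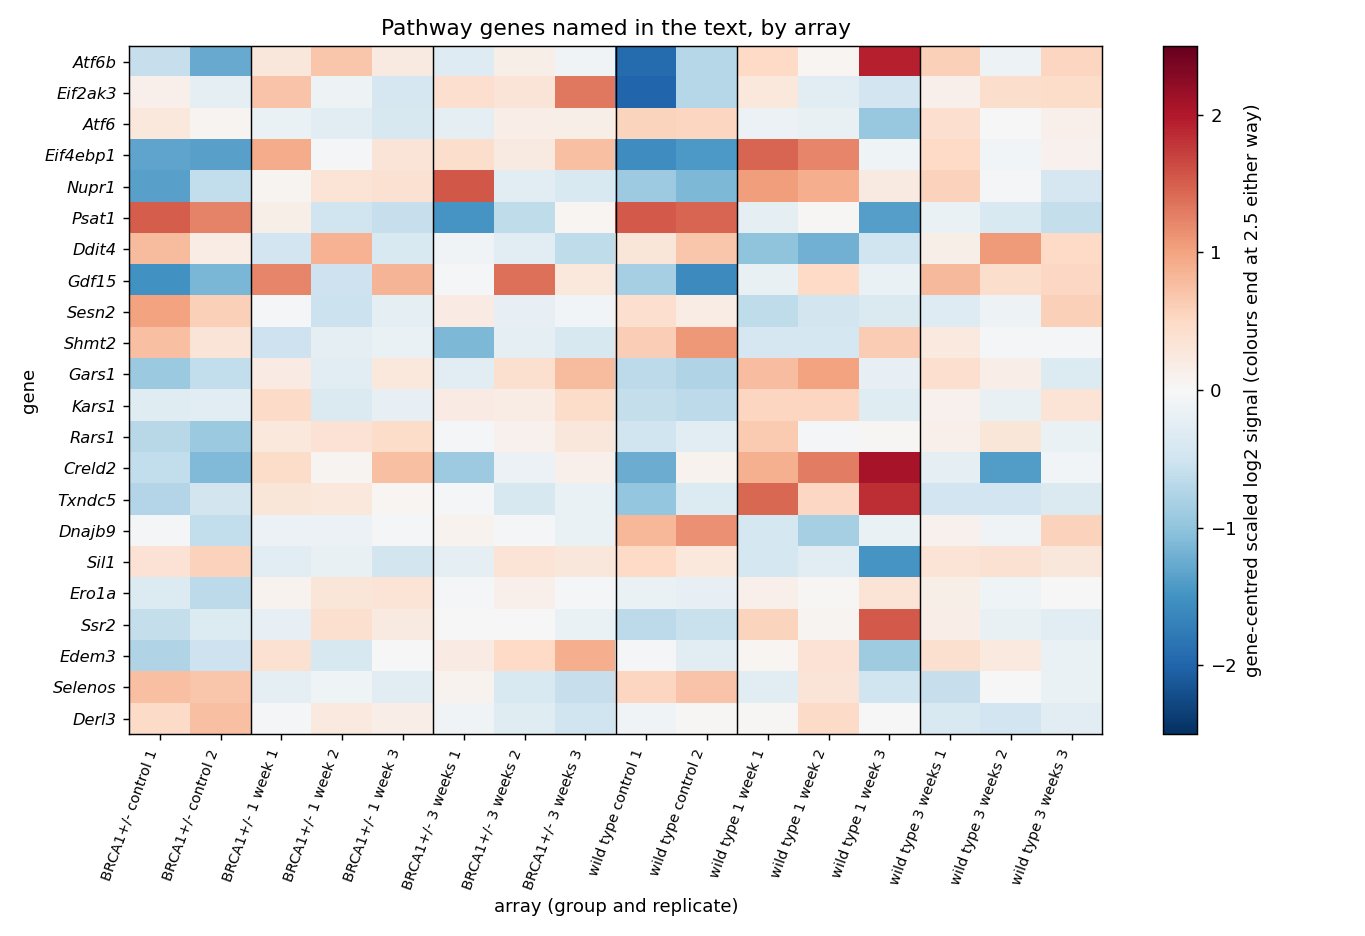
Gene-centred scaled log2 signal (colour, ending at 2.5 either way) of the pathway genes named above (rows) on each of the 16 arrays (columns, BRCA1+/- left and wild type right, in groups by time). Psat1 is red in all 4 controls and Eif4ebp1 blue, and wild-type 1-week replicate 3 has the highest values of Creld2, Txndc5, Atf6b and Ssr2.

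Among 11361 genes with a plain symbol, those whose pattern over the 16 arrays was nearest to each gene that passed were found by the root mean square difference of gene-centred log2 signals. Hspa5 and Hsp90b1 were each other's nearest gene (0.154), where the median gene differed from Hspa5 by 0.626. Next to Hspa5 came Rexo2 (0.178), and next to Hsp90b1 came Hnrnpa2b1 (0.164). Nearest to Atf3 were Eppk1 (0.383) and Ahnak2 (0.396), to Asns Slc10a2 (0.299) and Dbndd2 (0.316), and to Herpud1 Mmut (0.274) and Mapt (0.328). All of these share the same arrays and their scaling.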

How the data were processed

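Kidney cortex RNA was measured on 16 single-colour arrays, grouped by genotype and treatment as the labels give them. Per the file headers, the scanner files hold intensity values made with Agilent Feature Extraction 10.7 (also named in the submitters' processing notes): a processed signal, background-subtracted and spatially detrended, with substitute values for dim spots, and mean and background signals, none scaled between arrays. The deposited value table holds log2 values that equal the log2 processed signal minus a constant of each array. Scanner files also carry other columns, such as flags, which per the file headers mark control, outlier and background spots.

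Control (4259 of 62976 on an array) and outlier spots were left out, spots of a probe were averaged on the log2 scale, and the 75th percentile of the array was subtracted. Of 45598 probes, 21229 were named through their accession, 321 through an older symbol, and 24048 stayed under the array design's own name. A probe was kept where some group had it well above background throughout (20452 probes), and each gene was represented by its brightest such probe. limma 3.58.1 in R 4.3.3 (lmFit, eBayes; 1 mean per group over all 16 arrays, 10 residual and 4.87 prior degrees of freedom) gave two-sided p-values, Benjamini-Hochberg adjusted over 16031 genes. Errors of changes are SE. The number of arrays limits the precision.

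Comparisons were each treatment with its control, 3 weeks with 1 week, genotype within each condition, and both interactions. The members, the 5 pathway lists and the marker lists were chosen with earlier results of these data known. Beyond the 10 members, named genes are, per list and comparison with control, the 2 largest rises and 2 largest falls among called genes, and the 2 nearest genes in pattern; promoters are those of the first 2 ATF4-arm and first 2 chaperone genes with a match. Alternatives were normexp, quantile and median scaling, no filter, a detection limit, probe means, fewer groups, slides, the replicate number as a block, the deposited values, and each array left out. The deposited values repeat the main scaling almost exactly, so agreement under them was given in advance and is no separate check. Array brightness as a covariate, and the arm difference without Atf3, Herpud1 or single arrays, were added after seeing the data. Same-numbered arrays of different groups did not deviate together more often than others, so numbers were not taken as pairs. Of same-numbered pairs 8 of 36 correlated over 0.1, against 18 of 70 with different numbers. Python 3.11.15 read the files.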

Additional observations from a re-analysis of the deposited data

How the results depend on the processing

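Of 3190 values of the 10 genes under 29 alternatives, 2962 kept their side of the threshold and, where neither fit made a call, stayed within the residual SD (0.40), 112 moved further with no call in either fit, 9 gained a call and the rest lost one. A call never changed sign, but 146 values had the opposite sign where neither fit made a call. The 5, 2, 4 and 2 genes called in wild type after 1 and 3 weeks and in BRCA1+/- after 1 and 3 weeks became 5, 1, 1 and 2 with normexp, 3, 2, 1 and 2 with no filter on dim probes, 2, 2, 2 and 2 with only the groups compared, 0, 0, 0 and 1 within slide 1 and 1, 1, 1 and 1 within slide 2, both with few arrays. BRCA1+/- after 1 week gave 2 with the slide as a block or dim values at the detection limit. Brightness as a covariate left 1 in wild type after 3 weeks. Leaving out 1 array gave 3 to 8 and 1 to 2 in wild type and 1 to 4 and 1 to 3 in BRCA1+/-. The 2 genes called between 3 weeks and 1 week in wild type became 1 with no filter, 0 with only the groups compared, within either slide or with brightness as a covariate, and 1 to 2 with 1 array left out. Replicate numbers did not pair the arrays (r = -0.34 to 0.44, against -0.50 to 0.39 between arrays of different numbers). With the replicate block the counts were 4 and 2 in wild type and 2 and 2 in BRCA1+/-, and 1 between 3 weeks and 1 week in wild type. None of the 10 was called between genotypes or in an interaction under any of these settings. The share of all genes that passed also changes with the setting. In wild type after 1 week it was 27.1% in the main fit and 33.6% without replicate 3 of the 1-week group. For the other settings it is not given, so a lower count cannot be told from fewer calls over all genes.

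The arm difference (1.73 and 1.26 in wild type, 0.84 and 0.70 in BRCA1+/-, after 1 and 3 weeks) was 0.035, -0.16, -0.019 and -0.023 with normexp, which adds 50 to signals whose 75th percentile was 20.1 to 78.5. It was 1.195 and 0.62 in wild type with dim values at the detection limit, 0.59 in BRCA1+/- after 1 week within slide 2, and 1.09, 0.67, 0.36 and -0.11 without Atf3. Without Herpud1 it was 1.00 and 1.15 in wild type and 0.55 and 0.63 in BRCA1+/-. With 1 array left out it ran from 1.58 to 1.85 and 1.16 to 1.34 in wild type, and 0.71 to 0.96 and 0.58 to 0.83 in BRCA1+/-.

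List counts (sensors, ATF4-dependent, synthetases, chaperones, degradation) in wild type after 1 week were 5, 8, 2, 5 and 1. With 1 array left out they ran from 1 to 6, 3 to 13, 0 to 4, 3 to 7 and 0 to 6, with normexp they were 0, 2, 3, 6 and 1, and other settings gave 0 at the lowest for each list. In wild type after 3 weeks 2, 4, 0, 0 and 0 became 0 to 4, 0 to 8, 0, 0 to 3 and 0 to 4 with 1 array left out. In BRCA1+/- 0, 7, 1, 1 and 0 after 1 week became 0 to 1, 0 to 9, 0 to 1, 0 to 4 and 0 to 1, and 0, 6, 1, 0 and 3 after 3 weeks became 0 to 2, 0 to 9, 0 to 4, 0 to 2 and 0 to 6. The list counts too are given without the share of all genes under each setting. The calls of named list genes held in 6 to 28 of 29 alternatives, 1 of which, the deposited values, nearly repeats the main fit. With 2 control arrays a genotype, genes not above background in a group of controls (Atf3, Trib3, Creld2, Eif2ak3, Atf6b) have only a bound there.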

Other observations

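Pck2, the mitochondrial enzyme that makes phosphoenolpyruvate, rose in all 4 comparisons: its log2 change was 0.98 and 0.85 after 1 and 3 weeks in BRCA1+/- (limma, adjusted p = 0.022 and 0.028) and 1.00 and 0.91 in wild type (adjusted p = 0.0063 and 0.021). Mthfd2, a mitochondrial enzyme of folate metabolism, rose after 1 week by 1.12 in BRCA1+/- (adjusted p = 0.041) and by 1.22 in wild type (adjusted p = 0.0093). Vldlr, a lipoprotein receptor, fell by 1.06 and 0.87 in BRCA1+/- after 1 and 3 weeks (adjusted p = 0.034 and 0.049). In wild type after 1 week Pdia6, a disulfide isomerase of the ER, rose by 1.69 (adjusted p = 0.00041). These genes were chosen after their values were seen.

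Without wild-type 1-week replicate 3, calls in wild type after 1 week numbered 6 among the sensors, 13 among the ATF4-dependent genes, 4 among the synthetases, 7 among the chaperones and 6 in the degradation list, of 10, 19, 17, 19 and 21 tested, where 33.6% of all genes passed. The ATF4-dependent genes were 7 up (Mthfd2, Pck2, Nupr1, Cebpb, Atf5, Eif4ebp1, Jdp2) and 6 down (Psat1, Shmt2, Cth, Slc3a2, Sesn2, Ddit4). The synthetases Gars1, Iars1, Wars1 and Kars1 rose. In the degradation list Sel1l, Sec61a1, Sec61b and Ssr2 rose, and Edem1 and Derl2 fell.

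The elements searched in the promoters of the 10 genes were also counted in the lists. The ER stress response element stood in 5 of 16 promoters of the chaperone list (Creld2, Canx, Dnajc3, Ero1b, Calr) and in 1 of 16 of the degradation list (Derl3). The ATF4 element stood in 5 of 23 promoters of the ATF4-dependent list (Fgf21, Nupr1, Jdp2, Slc7a1, Pck2), in 5 of 15 of the synthetases (Tars1, Mars1, Iars1, Nars1, Aars1) and in 1 of 10 of the sensors (Ppp1r15b). The XBP1/ATF6 core stood in 2 of 16 promoters each of the chaperone list (Dnajc10, Hyou1) and the degradation list (Ube2j1, Vcp).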
